A study of Mus musculus with 4 samples.

Results

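Solute carrier genes expressed in neutrophils of the injured mouse heart were described by the substrate they move, and compared between neutrophil subsets and between genotypes. Of the 348 genes in the files whose symbol has the form of a solute carrier family member, 123 had a mean over 5 TPM in the 4 libraries. TPM is a level that corrects counts for transcript length and library size. Of these 123, the 5 genes Slc2a1, Slc2a3, Slc16a3, Slc40a1 and Slc11a1 were set aside by the definition of the group, which left 118 members. The members were therefore chosen by their measured mean TPM, and how strongly they are expressed is a description only. The other 225 genes were at or under the limit, and 59 of them had 0 counts in every library. The members just over the limit were Slc4a7 and Slc7a6, both with a mean of 5.21 TPM, and Slc25a32 with 5.22 TPM, and the genes just under it were Slc36a3 with 4.83, Slc6a13 with 4.76 and Slc52a2 with 4.63 TPM. Since the limit was set on the mean, a member can pass through the libraries in which it is high: 87 of the 118 members were over 5 TPM in all 4 libraries. Of the 118, 114 are transporters, and 4 carry such a symbol without being one, namely the scaffolds Slc9a3r1 and Slc9a3r2, the adaptor Slc4a1ap and the neighbouring gene Slc7a6os.

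The libraries were made from hearts taken on day 3, from wild-type (WT) and from *Cd300a-/-* mice, after myocardial infarction and reperfusion (MI/R), in which the left anterior descending artery is tied off and then reopened. Adult male mice on the C57BL/6 background were used, and *Cd300a-/-* mice lack the inhibitory receptor CD300a in all cells, not in neutrophils alone. Cells positive for CD45.2, CD11b and Ly6G were sorted into SiglecF hi neutrophils, which the sample labels call SiglecF+, and SiglecF lo neutrophils, labelled SiglecF−. The 4 groups were thus WT SiglecF hi, *Cd300a-/-* SiglecF hi, WT SiglecF lo and *Cd300a-/-* SiglecF lo, with 1 library each, and each library pooled cells of 8 mice. A pool hides the spread between mice, so no difference has a replicate check and no p-value was computed. The total of the deposited counts was 19278243 for WT and 17632989 for *Cd300a-/-* SiglecF hi neutrophils, and 9631901 for WT and 10988619 for *Cd300a-/-* SiglecF lo neutrophils, so a gene at the same TPM has fewer counts in the SiglecF lo libraries.

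Differences are given as the log2 ratio of TPM + 1 between 2 libraries, after subtraction of the median ratio of the 8344 genes with a mean over 5 TPM. That median was 0.57 for SiglecF hi against SiglecF lo neutrophils in WT mice, 0.64 for the same comparison in *Cd300a-/-* mice, and -0.01 and 0.03 for *Cd300a-/-* against WT mice within SiglecF lo and within SiglecF hi neutrophils. A member is called higher or lower when its ratio lies past 0.5 in that direction. Of all 8344 genes tested, 21.3% were higher and 21.5% lower for SiglecF hi against SiglecF lo neutrophils in WT mice, and 22.1% and 23.5% in *Cd300a-/-* mice. For *Cd300a-/-* against WT mice, the shares were 19.0% and 21.0% within SiglecF lo and 3.64% and 5.41% within SiglecF hi neutrophils. Each count of a class or list is to be read beside these shares, and differences from them were not tested. Values given as uncentred are without the subtraction. Intervals are 95% intervals of the counting error alone. Pairs of TPM values give WT first and *Cd300a-/-* next.

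Solute carriers are membrane proteins that move ions, nutrients, metals and metabolites across the plasma membrane, the mitochondrial inner membrane and the membranes of lysosomes, Golgi and vesicles, by coupling to gradients, by exchange or by facilitated diffusion. They include the amino acid exchangers that pair with the heavy chain Slc3a2, the Slc39 family that brings zinc into the cytosol and the Slc30 family that takes it out, and the Slc25 family of mitochondrial carriers. In neutrophils, carriers supply the sugar, cystine and metals on which glycolysis, glutathione and the oxidative burst depend.

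Transcripts of the deleted gene matched the genotype labels. Cd300a measured 163 and 0.740 TPM in the SiglecF hi libraries and 127 and 1.06 TPM in the SiglecF lo libraries, so it was high in both WT libraries and near 0 in both *Cd300a-/-* libraries. Siglecf measured 354 and 405 TPM in the SiglecF hi libraries and 11.3 and 15.3 TPM in the SiglecF lo libraries, high in the SiglecF hi sorts and low in the SiglecF lo sorts. The leukocyte gene Ptprc measured 646 and 710.0 TPM in the SiglecF hi libraries and 608 and 683 TPM in the SiglecF lo libraries, and Itgam, which encodes CD11b, measured 337 and 388 TPM in the SiglecF hi libraries and 367 and 550.4 TPM in the SiglecF lo libraries; both were abundant in every library. Ly6g, a surface marker used for the sort, measured 11.1 and 41.9 TPM in the SiglecF hi libraries and 330.4 and 889 TPM in the SiglecF lo libraries, so its transcript was far lower in the SiglecF hi libraries, and lowest in that of WT mice.

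All 8 listed neutrophil marker genes were tested, with a summed level of 27768 and 32760 TPM in SiglecF hi and 154708 and 203225 TPM in SiglecF lo neutrophils, and S100a9 was the most abundant. All 8 were lower in SiglecF hi neutrophils in both genotypes, with medians of -2.42 in WT and -2.59 in *Cd300a-/-* mice; uncentred, 5 were lower in WT and 7 in *Cd300a-/-* mice. Neutrophil genes were thus the most abundant of the marker lists in every library, less so in the SiglecF hi libraries. Granule genes of immature neutrophils, 4 of 6 tested and led by Ngp, summed to 71.0 and 488.9 TPM in SiglecF hi and 1758 and 4029 TPM in SiglecF lo neutrophils, and Mpo and Elane were each at 0 in at least 1 library.

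Transcripts of other cell types were also present. Macrophage genes, all 8 tested and led by C1qb, summed to 8289 and 7225 TPM in SiglecF hi and 3272 and 3072 TPM in SiglecF lo neutrophils, none at 0; 7 were higher in SiglecF hi neutrophils in WT mice and 4 in *Cd300a-/-* mice, and uncentred 7 and 8. Fibroblast genes, 5 of 6 tested and led by Dcn, summed to 1854 and 1300 against 869.3 and 812 TPM in the SiglecF hi and SiglecF lo libraries, none at 0. Both of these lists were thus most abundant in WT SiglecF hi neutrophils. Endothelial genes, all 5 tested and led by Pecam1, summed to 66.8 and 93.4 against 124.9 and 48.4 TPM, none at 0, and cardiomyocyte genes, 4 of 6 tested and led by Myl2, to 41.6 and 62.9 against 43.6 and 25.3 TPM, none at 0. The 4 erythroid genes, 2 of them tested and led by Hbb-bs, summed to 434.5 and 468.2 against 591.4 and 325.1 TPM, with Slc4a1 at 0 in all 4 libraries. For eosinophils, which also carry SiglecF, Epx was at 0 in all 4 libraries and Prg2 and Ear6 in 3, Il5ra had 4 to 12 counts, and Ear2 made up most of the summed 115.9 and 119.0 against 172.7 and 87.9 TPM. Ccr3, which other cells can also express, was detected in all 4 libraries, with 4.91 and 5.49 against 1.49 and 1.78 TPM and ratios of 0.68 in WT and 0.58 in *Cd300a-/-* mice, on a mean under the limit for tested genes. The lymphocyte list summed to 2.86 and 6.48 against 3.98 and 7.75 TPM, led by Cd79a, and the dendritic cell list to 3.34 and 5.56 against 11.4 and 1.61 TPM, led by Cd209a; no gene of either list reached a mean of 5 TPM, and all of them but Zbtb46 were at 0 in at least 1 library. In bulk libraries, fewer cells of a type and less RNA per cell cannot be told apart. The part of these transcripts in the results on solute carriers was not tested.

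The 118 members held 5248 and 5357 TPM together in the SiglecF hi libraries and 4289 and 4479 TPM in the SiglecF lo libraries, which is 0.52% and 0.54% against 0.43% and 0.45% of all TPM. The median member was at 21.4 and 21.1 TPM in the SiglecF hi libraries and at 12.7 and 12.6 TPM in the SiglecF lo libraries. The 118 members together, without the 5 carriers set aside, thus held more TPM in the SiglecF hi libraries, and the median member was higher there, before the shift of all genes is taken off. Each of the 5 carriers set aside was higher in the SiglecF lo library of both genotypes, as for Slc16a3 with 297 and 325 against 804 and 969 TPM. With them included, the direction of the summed TPM turned in *Cd300a-/-* mice. Of the 118 members, 50 were highest in the WT and 46 in the *Cd300a-/-* library of SiglecF hi neutrophils, against 36.5% and 42.1% of all genes tested, and 9 and 13 were highest in the SiglecF lo libraries, against 8.53% and 12.8%. The 27 mitochondrial carriers were the largest class and held 32.6% and 31.5% of the members' TPM in SiglecF hi and 36.0% and 28.3% in SiglecF lo neutrophils. The 16 amino acid carriers held 15.4% and 16.3% in SiglecF hi and 12.2% and 14.7% in SiglecF lo neutrophils, and the 20 carriers of zinc and other metals 10.9% and 11.0% against 6.35% and 6.95%.

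A few genes stood far above the rest on the TPM scale. The mitochondrial ADP/ATP carrier Slc25a5 measured 569 and 507 TPM in the SiglecF hi libraries and 585 and 366 TPM in the SiglecF lo libraries, and the mitochondrial phosphate carrier Slc25a3 measured 363 and 368 TPM in the SiglecF hi libraries and 358 and 308 TPM in the SiglecF lo libraries. The lysosomal peptide and histidine transporter Slc15a3 measured 262 and 327 TPM in the SiglecF hi libraries and 349 and 509 TPM in the SiglecF lo libraries. Slc25a5 was thus the leading member in 3 libraries, and Slc15a3 led in *Cd300a-/-* SiglecF lo neutrophils. Slc25a5 has near-identical copies in the mouse genome, so its values are uncertain. Next came Slc3a2, the heavy chain shared by several amino acid exchangers, with 280.1 and 340.5 TPM in the SiglecF hi libraries and 219 and 248 TPM in the SiglecF lo libraries, the scaffold Slc9a3r1 with 234 and 181 against 262 and 239 TPM, and the hexose transporter Slc2a6 with 99.8 and 139 against 175 and 282 TPM. The taurine transporter Slc6a6 measured 123 and 121 TPM in the SiglecF hi libraries and 89.5 and 109.9 TPM in the SiglecF lo libraries. Of these 7 genes, Slc15a3 and Slc2a6 were highest in *Cd300a-/-* SiglecF lo neutrophils, Slc25a5 and Slc9a3r1 in WT SiglecF lo and the other 3 in a SiglecF hi library.

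**Figure D1:**
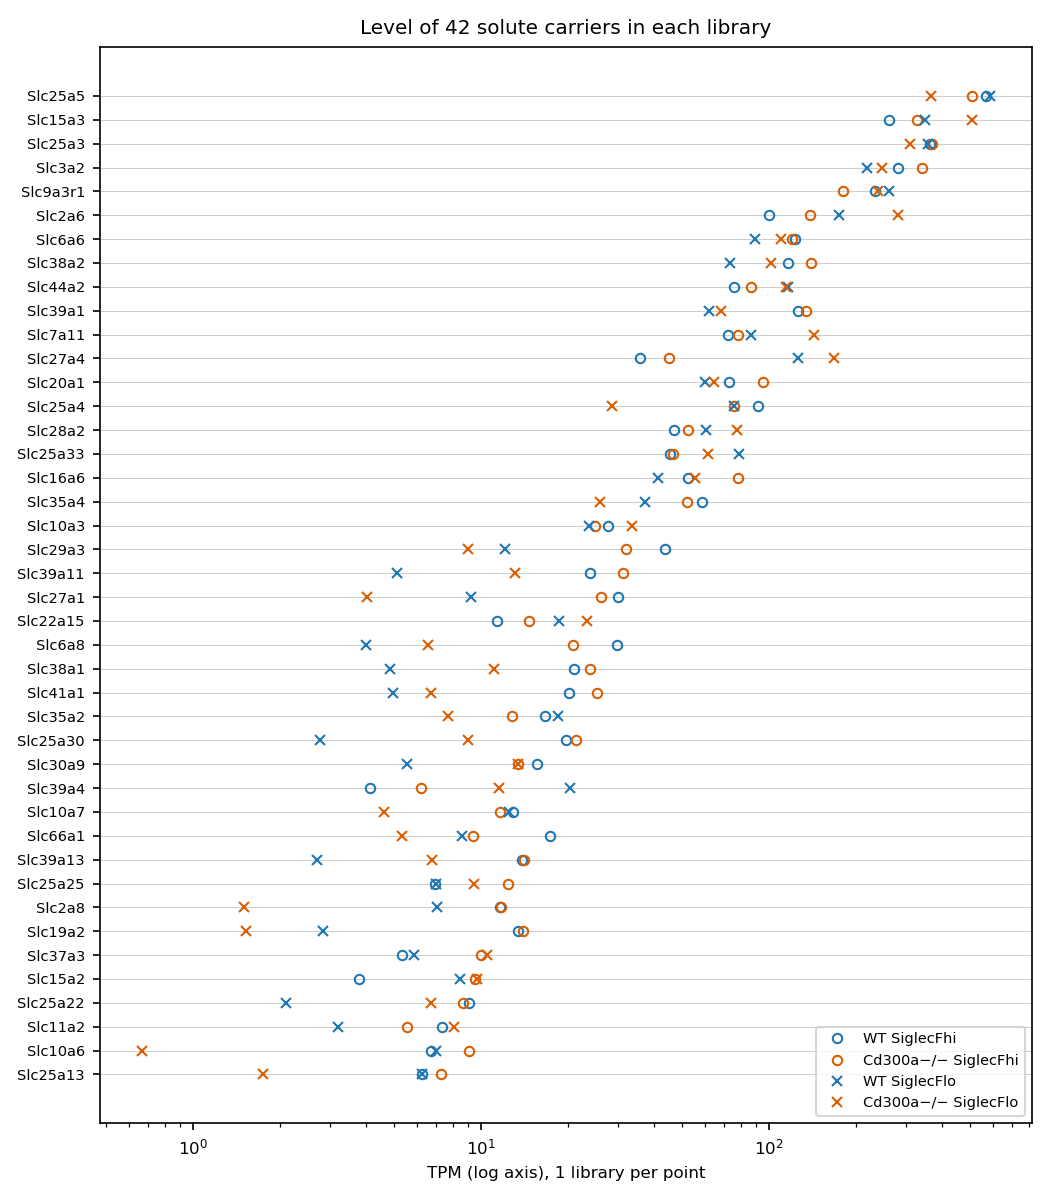
Level in each library of the 42 solute carriers chosen by their level and their ratios, in TPM on a log axis, ordered by mean; circles are SiglecF hi and crosses SiglecF lo neutrophils, blue WT and orange *Cd300a-/-*, 1 library per point. Slc25a5, Slc15a3 and Slc25a3 lie highest, and the crosses of Slc27a4, Slc2a6 and Slc39a4 lie to the right of their circles.

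How the subsets differ within each genotype was compared first. In WT mice, 37 of the 118 members were higher in SiglecF hi than in SiglecF lo neutrophils, which is 31.4% against 21.3% of all genes tested, and 24 were lower, which is 20.3% against 21.5%. In *Cd300a-/-* mice, 24 members were higher, 20.3% against 22.1% of all genes, and 27 were lower, 22.9% against 23.5%. The members' median ratio was 0.19 in WT and 0.06 in *Cd300a-/-* mice, where the median of all genes is 0 by construction. The differences between these shares were not tested. Among called members, 60.7% were higher in WT and 47.1% in *Cd300a-/-* mice, against 49.7% and 48.4% of all genes called. Without the subtraction of the median of all genes, 70 members were higher and 8 lower in WT mice (89.7% higher), and 77 higher and 7 lower in *Cd300a-/-* mice (91.7% higher). Of all genes called without it, 88.1% were higher in WT and 88.5% in *Cd300a-/-* mice, so the members' uncentred shares lay near those of all genes. The subtracted medians were above 0, so no call of higher could be lost uncentred. Of the calls of lower, 16 of the 24 in WT and 20 of the 27 in *Cd300a-/-* mice were lost. With library factors from the trimmed mean of M values (TMM), a scaling by counts, 49 members were higher and 21 lower in WT mice. In *Cd300a-/-* mice 32 were higher and 22 lower, so which direction led there depended on the scaling. The shares of all genes under TMM are not given, so these counts cannot be read as a trait of the members. With intervals taken into account, 24 members lay wholly above 0.5 and 17 wholly below -0.5 in WT mice, and 16 and 18 in *Cd300a-/-* mice. Of all 8344 genes tested, 1039 and 1336 did so in WT mice, and 1162 and 1505 in *Cd300a-/-* mice. In the same comparisons all 8 neutrophil genes were lower in each genotype (medians -2.42 in WT and -2.59 in *Cd300a-/-* mice), and of the 4 granule genes 3 were lower in each, with 1 higher in WT mice. Of 8 macrophage genes 7 were higher in WT (median 0.81) and 4 in *Cd300a-/-* mice (median 0.54), and of 5 fibroblast genes 3 were higher in WT (median 0.54) and 0 in *Cd300a-/-* mice (median 0.11). Endothelial genes had 4 of 5 lower in WT (median -1.12) and 2 higher in *Cd300a-/-* mice (median 0.28), cardiomyocyte genes 3 of 4 lower in WT (median -0.86) and 2 higher in *Cd300a-/-* mice (median 0.52), and erythroid genes 1 of 2 lower in each; Ear2 was lower in WT mice. Uncentred, fibroblast genes had 5 higher and 0 lower in WT and 3 and 0 in *Cd300a-/-* mice, endothelial genes 0 higher and 4 lower in WT and 4 and 0 in *Cd300a-/-* mice, cardiomyocyte genes 1 higher and 0 lower in WT and 3 and 0 in *Cd300a-/-* mice, and erythroid genes 0 higher and 1 lower in WT and 1 and 0 in *Cd300a-/-* mice. The part of these genes in the members' ratios was not tested.

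The comparisons in WT and in *Cd300a-/-* mice share no library. In both, 15 members were higher in SiglecF hi neutrophils, which is 40.5% of the 37 and 62.5% of the 24, and 15 were lower, which is 62.5% of the 24 and 55.6% of the 27. These are 12.7% of the members in each direction, against 9.70% of all genes for higher and 13.6% for lower. The members higher in both genotypes were Slc6a8, Slc12a7, Slc27a1, Slc25a10, Slc25a30, Slc29a3, Slc35a3, Slc46a3, Slc37a2, Slc37a4, Slc48a1, Slc19a2, Slc39a11, Slc41a1 and Slc39a6. Those lower in both were Slc7a11, Slc27a4, Slc25a33, Slc25a44, Slc25a16, Slc9a3r1, Slc28a2, Slc22a15, Slc15a3, Slc15a2, Slc2a6, Slc37a3, Slc44a2, Slc44a1 and Slc39a4. Uncentred, 61 members were higher in both and 4 lower in both, namely Slc27a4, Slc22a15, Slc2a6 and Slc39a4, so most calls of lower in both rest on the subtraction. Of all 8344 genes tested, 4569 were higher uncentred in WT and 4888 in *Cd300a-/-* mice, each comparison counted singly. The number of all genes higher in both is not given, so the 61 are not read as a trait of the members.

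**Figure D2:**
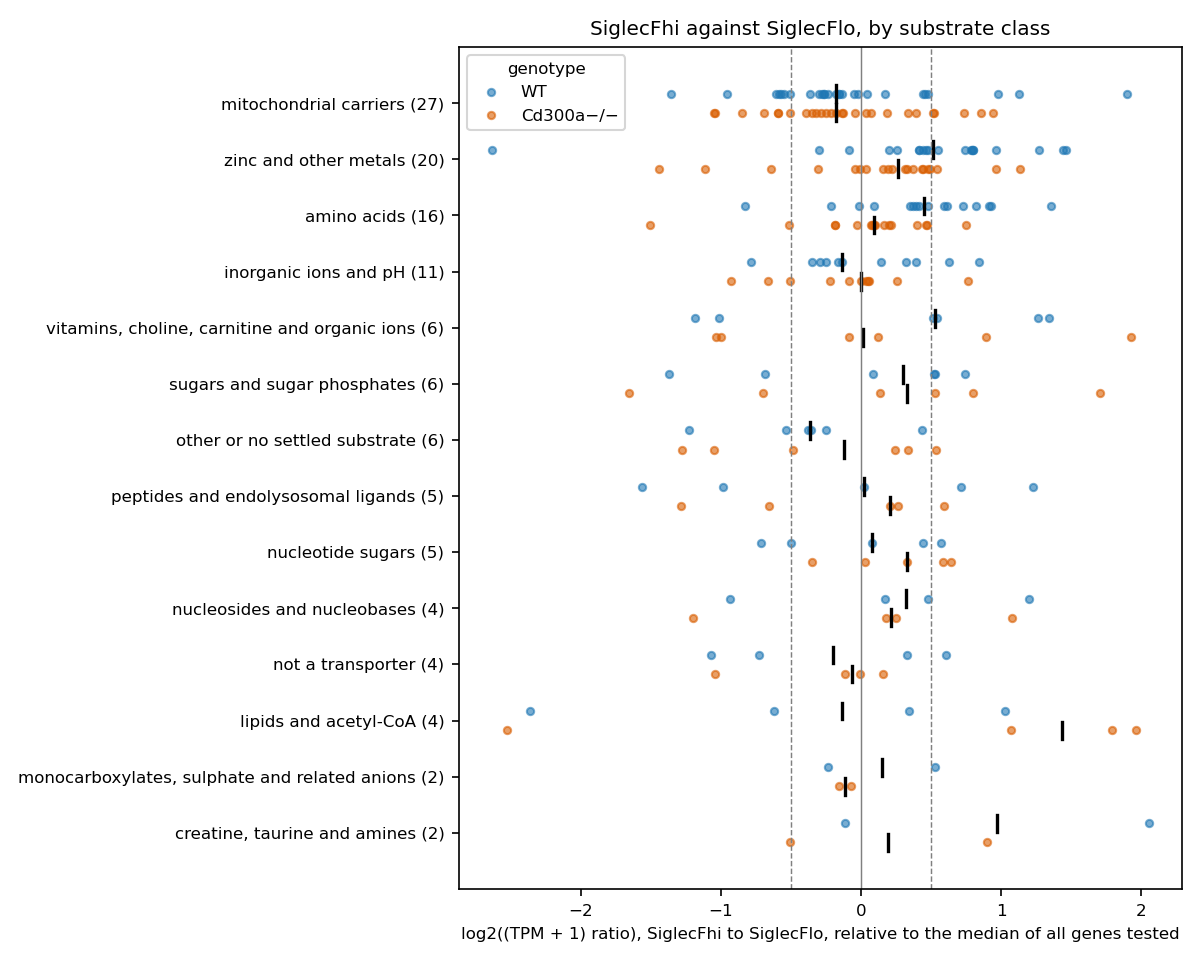
Ratio of SiglecF hi to SiglecF lo neutrophils for each of the 118 members, as log2 of the ratio of TPM + 1 less the median of all genes tested, by substrate class with the number of members in brackets. Each point is 1 gene, blue in WT and orange in *Cd300a-/-* mice, black ticks are class medians and dashed lines mark 0.5 and -0.5; the zinc and metal class has medians of 0.51 in WT and 0.27 in *Cd300a-/-* mice.

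Among carriers of zinc and other metals, 10 of 20 were called higher and 1 lower in SiglecF hi neutrophils of WT mice, against 21.3% and 21.5% of all genes tested. The class median there was 0.51. In *Cd300a-/-* mice 3 were higher and 3 lower, against 22.1% and 23.5% of all genes tested. The class median was 0.27, and neither median changed direction under any scaling tried. Uncentred, the class had 17 higher and 1 lower in WT and 16 and 1 in *Cd300a-/-* mice. The summed level of the class was 574.7 and 591.2 TPM in SiglecF hi and 272.3 and 311.2 TPM in SiglecF lo neutrophils. Slc39a1, a zinc importer of the plasma membrane and the most abundant of the class, measured 126 and 134 TPM in the SiglecF hi libraries and 62.2 and 68.0 TPM in the SiglecF lo libraries, with ratios of 0.44 and 0.33 under the threshold in both genotypes and uncentred values of 1.01 and 0.97. The zinc transporter Slc39a11 measured 24.0 and 31.1 TPM in the SiglecF hi libraries and 5.09 and 13.1 TPM in the SiglecF lo libraries; its ratio was 1.47 in WT (interval 1.19 to 1.74) and 0.55 in *Cd300a-/-* mice (interval 0.35 to 0.74). The magnesium transporter Slc41a1 measured 20.2 and 25.4 TPM in the SiglecF hi libraries and 4.93 and 6.69 TPM in the SiglecF lo libraries, a ratio of 1.27 in WT and 1.14 in *Cd300a-/-* mice. Both were thus high in the SiglecF hi libraries of both genotypes. Slc39a13, a zinc transporter of the Golgi and vesicles, measured 13.9 and 14.1 TPM in the SiglecF hi libraries and 2.69 and 6.76 TPM in the SiglecF lo libraries, a ratio of 1.44 in WT and 0.32 in *Cd300a-/-* mice, but it overlaps the proteasome gene Psmc3, which had a mean of 90.2 TPM.

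Slc39a4, the zinc importer known from intestinal uptake (ENSMUSG00000063354, chr15:76496583-76501584, minus strand), went the other way. It measured 4.13 and 6.19 TPM in the SiglecF hi libraries and 20.5 and 11.5 TPM in the SiglecF lo libraries, on 100 to 290 counts per library, a ratio of -2.63 in WT (interval -2.91 to -2.36) and -1.44 in *Cd300a-/-* mice (interval -1.73 to -1.16). It was the most lowered member in WT mice and highest in WT SiglecF lo neutrophils. The metallothionein genes Mt1 and Mt2, which bind zinc in the cytosol, measured 423 and 347 against 273 and 174 TPM and 397 and 258 against 292 and 157 TPM in SiglecF hi against SiglecF lo neutrophils, and the zinc sensor Mtf1 8.83 and 8.28 against 4.93 and 5.27 TPM. None of the 3 tested genes of this zinc buffering list was called in either subset comparison; uncentred, the list had 2 higher and 0 lower in WT and 3 and 0 in *Cd300a-/-* mice.

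Among the 16 amino acid carriers, 7 were higher and 1 lower in SiglecF hi neutrophils of WT mice (median 0.45), and 1 was higher and 2 lower in *Cd300a-/-* mice (median 0.10), with both medians above 0 under every scaling tried. Uncentred, the class had 14 higher and 0 lower in WT and 12 and 1 in *Cd300a-/-* mice. Slc38a1, a glutamine and neutral amino acid transporter, measured 21.1 and 24.0 TPM in the SiglecF hi libraries and 4.82 and 11.1 TPM in the SiglecF lo libraries, a ratio of 1.36 (interval 1.20 to 1.51) in WT and 0.40 in *Cd300a-/-* mice. Its neighbour and paralog Slc38a2, 44479 bases away on chromosome 15, measured 116 and 140.2 TPM in the SiglecF hi libraries and 73.3 and 101 TPM in the SiglecF lo libraries, with ratios of 0.09 and -0.18 (uncentred 0.66 and 0.46). Both genes were thus lowest in WT SiglecF lo neutrophils. Between subsets, Slc38a2 lay within 0.5 of the median of all genes in each genotype.

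Slc7a11, which takes up cystine in exchange for glutamate and so feeds glutathione synthesis, was the amino acid carrier lower in SiglecF hi neutrophils in both genotypes. It measured 72.2 and 78.3 TPM in the SiglecF hi libraries and 86.4 and 143 TPM in the SiglecF lo libraries, a ratio of -0.83 in WT (interval -0.88 to -0.77) and -1.50 in *Cd300a-/-* mice (interval -1.55 to -1.46). Uncentred, the ratios were -0.26 and -0.86, so the call in WT mice was lost. The *Cd300a-/-* SiglecF lo library stood above the other 3. Its partner Slc3a2 had ratios of only -0.21 and -0.19. Of 9 tested genes of glutathione synthesis and use, 4 were lower and 0 higher in WT mice, and 5 lower and 0 higher in *Cd300a-/-* mice, with medians of -0.47 and -1.27; uncentred, the list had 1 higher and 4 lower in WT and 0 and 5 in *Cd300a-/-* mice. Glutathione reductase, Gsr, measured 378 and 495 TPM in the SiglecF hi libraries and 568 and 782 TPM in the SiglecF lo libraries, ratios of -1.16 and -1.30. Ggt1, which breaks down extracellular glutathione, measured 2.13 and 3.91 TPM in the SiglecF hi libraries and 13.0 and 82.8 TPM in the SiglecF lo libraries, ratios of -2.73 and -4.74. Slc7a11, Gsr and Ggt1 thus had the same order of libraries, with *Cd300a-/-* SiglecF lo highest and WT SiglecF lo next.

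Of 14 tested genes of the amino acid response through ATF4, 1 was higher and 6 lower in SiglecF hi neutrophils of WT mice, and 1 higher and 4 lower in *Cd300a-/-* mice. Uncentred, the list had 5 higher and 1 lower in WT and 8 and 2 in *Cd300a-/-* mice, so which direction led depended on the subtraction. Atf4 itself measured 448 and 510.3 TPM in the SiglecF hi libraries and 335 and 335 TPM in the SiglecF lo libraries, ratios of -0.15 and -0.04. The stress gene Sesn2 had ratios of -1.71 in both genotypes, and the alanyl-tRNA synthetase gene Aars 0.99 and 1.30. Of 13 tested genes of amino acid sensing by mTORC1 at the lysosome, 4 were higher and 0 lower in WT mice and 3 higher and 1 lower in *Cd300a-/-* mice; the Raptor gene Rptor had ratios of 0.85 and 0.60. Uncentred, this list had 9 higher and 0 lower in WT and 10 and 0 in *Cd300a-/-* mice.

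Of the 6 carriers of sugars and sugar phosphates, 3 were higher and 2 lower in SiglecF hi neutrophils in each genotype, and uncentred 4 higher and 1 lower in each. Slc2a6, a lysosomal hexose transporter of the GLUT family, was lower, with ratios of -1.37 (interval -1.46 to -1.28) and -1.66 (interval -1.73 to -1.58). Slc37a3, of the sugar phosphate exchanger family (ENSMUSG00000029924, chr6:39311707-39354609, minus strand), measured 5.31 and 10.0 TPM in the SiglecF hi libraries and 5.83 and 10.5 TPM in the SiglecF lo libraries, with ratios of -0.68 and -0.70 that were -0.11 and -0.06 uncentred, so both calls were lost. Slc2a8, an intracellular hexose transporter, measured 11.6 and 11.8 TPM in the SiglecF hi libraries and 7.02 and 1.51 TPM in the SiglecF lo libraries, ratios of 0.09 in WT and 1.71 in *Cd300a-/-* mice, on 18 counts in *Cd300a-/-* SiglecF lo neutrophils. Slc2a8 was thus level with other genes in WT mice and much higher in SiglecF hi neutrophils of *Cd300a-/-* mice, where its SiglecF lo library was the low one.

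The fatty acid carriers of the Slc27 family split. Slc27a4, an acyl-CoA synthetase that drives fatty acid uptake (ENSMUSG00000059316, chr2:29692646-29707534, plus strand), measured 35.7 and 45.1 TPM in the SiglecF hi libraries and 126 and 169 TPM in the SiglecF lo libraries, ratios of -2.36 in WT (interval -2.46 to -2.27) and -2.52 in *Cd300a-/-* mice (interval -2.61 to -2.44). Its relative Slc27a1 measured 30.0 and 26.2 TPM in the SiglecF hi libraries and 9.24 and 4.02 TPM in the SiglecF lo libraries, ratios of 1.03 (interval 0.80 to 1.26) and 1.79 (interval 1.50 to 2.09). Slc27a4 was therefore high in both SiglecF lo libraries and Slc27a1 in both SiglecF hi libraries. Among all 118 members Slc27a4 had the lowest ratio in *Cd300a-/-* mice and the next to lowest in WT mice. Of 8 genes of fatty acid oxidation and carnitine, all tested, 1 was lower in WT mice and none was called in *Cd300a-/-* mice, and uncentred the list had 5 higher and 0 lower in WT and 8 and 0 in *Cd300a-/-* mice; Cpt1a, which commits fatty acids to the mitochondrion, had ratios of 0.12 and 0.09.

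Of the 6 carriers of vitamins, choline, heme and related substrates, 4 were higher and 2 lower in WT mice, and 2 higher and 2 lower in *Cd300a-/-* mice; uncentred, the class had 4 higher and 1 lower in WT and 4 and 0 in *Cd300a-/-* mice. The thiamine transporter Slc19a2 (ENSMUSG00000040918, chr1:164076615-164092954, plus strand) measured 13.4 and 14.0 TPM in the SiglecF hi libraries and 2.83 and 1.53 TPM in the SiglecF lo libraries, ratios of 1.34 (interval 1.03 to 1.66) and 1.92 (interval 1.59 to 2.26). The heme transporter Slc48a1, which moves heme out of lysosomes, measured 113 and 82.9 TPM in the SiglecF hi libraries and 30.8 and 27.9 TPM in the SiglecF lo libraries, ratios of 1.27 and 0.89. Both were high in the SiglecF hi libraries. The choline transporters Slc44a2 and Slc44a1 were called lower there, with ratios of -1.19 and -1.04 for Slc44a2 and a ratio of -1.01 in WT mice for Slc44a1; Slc44a2 measured 75.9 and 86.7 TPM in the SiglecF hi libraries and 117 and 114 TPM in the SiglecF lo libraries. Uncentred, Slc44a2 had -0.62 and -0.39 and Slc44a1 -0.44 and -0.36, so the call of Slc44a2 in WT mice was the one kept.

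The 4 carriers of nucleosides and nucleobases had 1 member on each side in each genotype; uncentred, the class had 3 higher and 0 lower in WT and 3 and 1 in *Cd300a-/-* mice. Slc28a2, which concentrates purine nucleosides with sodium, measured 46.8 and 52.3 TPM in the SiglecF hi libraries and 60.6 and 77.3 TPM in the SiglecF lo libraries, ratios of -0.94 and -1.20, of which that in WT mice was -0.37 uncentred and so not called. Slc29a3, an equilibrative nucleoside transporter of lysosomes, measured 43.8 and 31.9 TPM in the SiglecF hi libraries and 12.2 and 8.98 TPM in the SiglecF lo libraries, ratios of 1.20 and 1.08. The files also list a paralog of Slc28a2 beside it, and reads shared between them make the value of Slc28a2 uncertain.

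Peptide and lysosomal carriers had 2 members higher and 2 lower of 5 in WT mice, and 1 higher and 2 lower in *Cd300a-/-* mice; uncentred, 3 were higher and 1 lower in each. Slc15a3, which exports histidine and bacterial peptides from endolysosomes, had ratios of -0.98 (interval -1.04 to -0.92) and -1.28 (interval -1.33 to -1.23), which were -0.41 and -0.64 uncentred, so the call in WT mice was lost. The plasma membrane peptide transporter Slc15a2 (ENSMUSG00000022899, chr16:36570539-36605324, minus strand) measured 3.76 and 9.55 TPM in the SiglecF hi libraries and 8.47 and 9.66 TPM in the SiglecF lo libraries, ratios of -1.56 and -0.66, with WT SiglecF hi the low library; uncentred they were -0.99 and -0.014, so the call in *Cd300a-/-* mice was lost. Of 9 listed genes of endolysosomal sensing, all tested, 1 was higher and 2 lower in WT mice and 0 higher and 2 lower in *Cd300a-/-* mice; uncentred, the list had 3 higher and 1 lower in WT and 5 and 0 in *Cd300a-/-* mice. Nod1, a cytosolic receptor of bacterial cell wall peptides, had ratios of -1.11 and -0.96 (uncentred -0.54 and -0.31), and the nucleic acid receptor Tlr7 0.67 and 0.10.

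The creatine transporter Slc6a8 (ENSMUSG00000019558, chrX:72716756-72726108, plus strand) had the largest ratio of any member in WT mice. It measured 29.8 and 20.9 TPM in the SiglecF hi libraries and 3.98 and 6.53 TPM in the SiglecF lo libraries, a ratio of 2.06 in WT (interval 1.80 to 2.32) and 0.90 in *Cd300a-/-* mice (interval 0.67 to 1.12). It was thus high in both SiglecF hi libraries and highest in that of WT mice. Of 4 tested genes of creatine and taurine metabolism, 1 was lower in each genotype and 0 higher, and uncentred the list had 1 higher and 0 lower in WT and 3 and 0 in *Cd300a-/-* mice; the most abundant, the brain-type creatine kinase Ckb, had ratios of -0.12 and -0.06. The taurine transporter Slc6a6 had ratios of -0.11 and -0.51, and the value in *Cd300a-/-* mice was 0.13 without the subtraction of the median.

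Among the 27 mitochondrial carriers, 3 were higher and 7 lower in SiglecF hi neutrophils of WT mice and 5 higher and 7 lower in *Cd300a-/-* mice. Their median was -0.18 in both genotypes, which became 0.39 and 0.47 uncentred, with 10 higher and 1 lower in WT and 13 and 0 in *Cd300a-/-* mice. Slc25a30, a carrier of the uncoupling protein group (ENSMUSG00000022003, chr14:75997557-76024477, minus strand), measured 19.8 and 21.4 TPM in the SiglecF hi libraries and 2.77 and 9.0 TPM in the SiglecF lo libraries, ratios of 1.90 in WT (interval 1.59 to 2.21) and 0.52 in *Cd300a-/-* mice. The glutamate carrier Slc25a22 measured 9.08 and 8.65 TPM in the SiglecF hi libraries and 2.10 and 6.70 TPM in the SiglecF lo libraries, ratios of 1.13 and -0.32. For both genes WT SiglecF lo was the low library. Slc25a33, a pyrimidine nucleotide carrier, measured 45.2 and 46.3 TPM in the SiglecF hi libraries and 78.8 and 61.5 TPM in the SiglecF lo libraries, ratios of -1.36 and -1.04, so it was high in the SiglecF lo libraries; uncentred they were -0.79 and -0.40, and the call in *Cd300a-/-* mice was lost. The abundant Slc25a5 and Slc25a3 had ratios of -0.61 and -0.55 in WT mice, which were -0.04 and 0.02 uncentred, so both calls were lost, and -0.18 and -0.39 in *Cd300a-/-* mice. The mitochondrial ADP/ATP carrier Slc25a4 measured 91.5 and 75.7 TPM in the SiglecF hi libraries and 75.5 and 28.5 TPM in the SiglecF lo libraries, ratios of -0.30 and 0.74.

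Of the 8 chaperones, dehydrogenases and pyruvate carrier genes listed beside the monocarboxylate carriers, all tested, 3 were lower in SiglecF hi neutrophils in each genotype and 0 higher; uncentred, the list had 1 higher and 2 lower in WT and 2 and 1 in *Cd300a-/-* mice. The mitochondrial pyruvate carrier subunit Mpc1 had ratios of -1.32 and -1.12 (uncentred -0.75 and -0.47), and Emb, a chaperone of monocarboxylate carriers, -1.22 and -1.33. Slc16a6, of the monocarboxylate family, measured 52.4 and 78.1 TPM in the SiglecF hi libraries and 41.3 and 55.3 TPM in the SiglecF lo libraries, with no call between subsets (uncentred 0.34 and 0.49). Of 10 genes of polyamine and arginine metabolism, all tested, 1 was higher and 3 lower in WT mice, and 1 higher and 4 lower in *Cd300a-/-* mice; uncentred, the list had 6 higher and 1 lower in WT and 4 and 1 in *Cd300a-/-* mice. Nos2 was lower in both, with ratios of -1.88 and -3.49. Sat1 was called lower in both, with ratios of -0.92 and -0.86, but these were -0.35 and -0.22 uncentred, so both calls were lost.

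Of 11 carriers of inorganic ions and protons, 2 were higher and 1 lower in WT mice and 1 higher and 3 lower in *Cd300a-/-* mice, and uncentred 5 higher and 0 lower in WT and 7 and 0 in *Cd300a-/-* mice; the most abundant, the phosphate carrier Slc20a1, measured 72.9 and 95.1 TPM in the SiglecF hi libraries and 60.1 and 64.3 TPM in the SiglecF lo libraries. Of 13 tested genes of volume and pH regulation, 6 were higher and 1 lower in WT mice and 5 higher and 2 lower in *Cd300a-/-* mice, and uncentred 9 higher and 1 lower in WT and 9 and 1 in *Cd300a-/-* mice. Among them the proton channel of the oxidative burst, Hvcn1, had ratios of 1.34 and 1.54, and the water and glycerol channel Aqp9 -2.18 and -1.79. Of the 5 carriers of nucleotide sugars into the Golgi, 1 was higher and 1 lower in WT and 2 higher and 0 lower in *Cd300a-/-* mice, and uncentred 3 higher and 0 lower in WT and 4 and 0 in *Cd300a-/-* mice; Slc35a4 was the most abundant, with 58.8 and 51.8 TPM in the SiglecF hi libraries and 37.2 and 25.9 TPM in the SiglecF lo libraries. Of 6 tested enzymes of nucleotide sugar and sialic acid synthesis, 1 was higher and 2 lower in each genotype, and uncentred 2 higher and 1 lower in WT and 2 and 0 in *Cd300a-/-* mice. Among members with no settled substrate, Slc22a15 measured 11.4 and 14.7 TPM in the SiglecF hi libraries and 18.6 and 23.4 TPM in the SiglecF lo libraries, ratios of -1.23 and -1.28, and Slc10a3 27.7 and 25.0 against 23.7 and 33.4 TPM, ratios of -0.35 and -1.05 (uncentred 0.22 and -0.40). Slc10a3 lies on the same strand as Ubl4a and overlaps it, which makes its counts uncertain.

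What CD300a deficiency changes was compared next, first within SiglecF lo neutrophils. This comparison shares its WT library with the subset comparison in WT mice, and its *Cd300a-/-* library with that in *Cd300a-/-* mice. A gene low in the WT SiglecF lo library alone thus has a raised ratio in both, so calls in both are not separate findings. Of the 118 members, 27 were called higher in the *Cd300a-/-* library than in the WT library, which is 22.9% against 19.0% of all genes tested, and 18 were lower, which is 15.3% against 21.0%. The median member ratio was 0.14. The differences between these shares were not tested, and these libraries have the fewest counts. Intervals of 18 members lay wholly above 0.5 and those of 12 wholly below -0.5, against 917 and 1040 of all 8344 genes tested. Where a member had to exceed 5 TPM in both libraries, 17 of 89 were higher and 12 lower. The shares of all genes under that filter are not given, so these counts show no excess over all genes. Neutrophil markers also differed between these libraries, with 4 of 8 higher in *Cd300a-/-* SiglecF lo and a median of 0.52, granule genes 3 of 4 higher, macrophage genes 1 of 8 higher, endothelial genes 4 of 5 lower with a median of -1.25, cardiomyocyte genes 2 of 4 lower, erythroid genes 1 of 2 lower and the tested eosinophil gene Ear2 lower. Their part in the members' ratios was not tested.

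Of 16 amino acid carriers, 7 were higher and 2 lower in *Cd300a-/-* SiglecF lo neutrophils, against 19.0% and 21.0% of all genes tested. Their median was 0.48, which was 0.19 over the members above 5 TPM in both libraries. Slc38a1 had a ratio of 1.07 (interval 0.90 to 1.25) and Slc7a11 of 0.73 (interval 0.68 to 0.79). Slc3a2 and Slc38a2 had ratios of 0.19 and 0.48, both under the threshold. Of the glutathione genes, 3 of 9 were higher and 0 lower, and uncentred 3 and 1, the latter being Txn1 with -0.51. Gclc and Gclm, which encode the enzyme of the rate-limiting step of glutathione synthesis, measured 8.07 and 15.3 TPM in the WT library and 15.5 and 34.4 TPM in the *Cd300a-/-* library, with ratios of 0.88 and 1.13. Ggt1 went from 13.0 to 82.8 TPM, a ratio of 2.59. The cystine carrier, Gclc, Gclm and Ggt1 were thus higher in *Cd300a-/-* SiglecF lo neutrophils. Among the glutathione genes not called, Gss, Gsr and Txnrd1 had ratios of 0.34, 0.47 and 0.33, and Gpx1, Gpx4 and Txn1 of -0.31, -0.32 and -0.49. Of the ATF4 genes 1 of 14 was higher and 3 lower, with Psat1, of serine synthesis, at -1.51 and Chac1, which degrades glutathione, at 0.84. Of the mTORC1 genes 1 of 13 was higher, namely Mtor with a ratio of 0.68, and 2 were lower.

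Metal carriers had 6 of 20 higher and 1 lower in *Cd300a-/-* SiglecF lo neutrophils, with a median of 0.18, which was -0.06 over the members above 5 TPM in both libraries. Slc39a11 had a ratio of 1.22 (interval 0.92 to 1.53), the zinc carrier Slc30a9 1.16 (interval 0.94 to 1.38) and Slc39a13 1.09. The iron and divalent metal importer Slc11a2 measured 7.31 and 5.54 TPM in the SiglecF hi libraries and 3.20 and 8.05 TPM in the SiglecF lo libraries, a ratio of 1.12 (interval 0.86 to 1.38). In each of these 4 genes WT SiglecF lo was the low library. Slc39a4 was the member called lower, with a ratio of -0.76. Mt1 and Mt2 were lower too, with ratios of -0.63 and -0.88.

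Mitochondrial carriers split in the same comparison, with 8 of 27 higher and 5 lower and a median of 0.09. Slc25a30 and Slc25a22 had ratios of 1.42 (interval 1.08 to 1.77) and 1.33. Slc25a4 was at 75.5 TPM in the WT library and 28.5 TPM in the *Cd300a-/-* library, a ratio of -1.36 (interval -1.55 to -1.18), and Slc25a13, the mitochondrial aspartate and glutamate carrier, had a ratio of -1.38 on 31 counts in the *Cd300a-/-* library. The leading carrier Slc25a5 had a ratio of -0.66. Both ADP/ATP carriers were thus lower in *Cd300a-/-* SiglecF lo neutrophils, and Slc25a30 and Slc25a22 were higher.

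The lowest ratios outside the mitochondrial class included carriers of lipids, hexoses and nucleotide sugars. The steroid sulphate carrier Slc10a6 (ENSMUSG00000029321, chr5:103753577-103777269, minus strand) measured 6.71 and 9.11 TPM in the SiglecF hi libraries and 6.96 and 0.664 TPM in the SiglecF lo libraries, a ratio of -2.24 (interval -2.73 to -1.75) that rests on 76 counts in WT and 8 in *Cd300a-/-* SiglecF lo neutrophils. Slc2a8 had a ratio of -1.66 (interval -2.15 to -1.17), Slc27a1 of -1.02, and the UDP-galactose carrier Slc35a2 of -1.16 with 16.7 and 12.9 TPM in the SiglecF hi libraries and 18.5 and 7.68 TPM in the SiglecF lo libraries. Of the 4 lipid carriers 3 were lower, and Slc27a4 had a ratio of 0.43. *Cd300a-/-* SiglecF lo was the lowest of the 4 libraries for Slc10a6, Slc2a8, Slc27a1 and Slc35a2. Of the fatty acid oxidation genes 0 of 8 were higher and 2 lower.

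Some carriers that were higher in SiglecF lo than in SiglecF hi neutrophils were higher still in the *Cd300a-/-* SiglecF lo library: Slc2a6 had a ratio of 0.70 (interval 0.62 to 0.78) and Slc15a3 of 0.56 (interval 0.50 to 0.61). Slc6a8, which was instead higher in SiglecF hi neutrophils in both genotypes, had a ratio of 0.61. Of the polyamine and arginine genes 3 of 10 were higher and 1 lower. Nos2, the inducible nitric oxide synthase that uses arginine, was at 5.85 TPM in the WT and 36.2 TPM in the *Cd300a-/-* library, a ratio of 2.45. Of the other lists, 1 of 9 endolysosomal sensing genes was higher and 0 lower, 1 of 4 creatine and taurine genes was higher and 2 lower, 4 of 13 volume and pH genes were higher and 3 lower, and none of the 8 monocarboxylate list genes or 6 nucleotide sugar enzymes was called.

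In SiglecF hi neutrophils the genotypes differed far less. Of the 118 members 4 were higher in *Cd300a-/-* SiglecF hi neutrophils, which is 3.39% against 3.64% of all genes tested, and 2 were lower, 1.69% against 5.41%, with a median of -0.01. Without the subtraction of the median of all genes, 5 were higher and 1 lower, Slc6a8 being no longer called. Fewer genes of any kind were called in this comparison, and the members' standard deviation was 0.30 against 0.34 over all genes, compared with 0.63 and 0.72 in SiglecF lo neutrophils. The members called higher were Slc15a2, with 3.76 TPM in the WT and 9.55 TPM in the *Cd300a-/-* library and a ratio of 1.12 (interval 0.88 to 1.36), Slc37a3 with 0.77 (interval 0.56 to 0.98), the mitochondrial ATP-magnesium carrier Slc25a25 with 0.73 and Slc16a6 with 0.53. Those called lower were the lysosomal cationic amino acid carrier Slc66a1 (ENSMUSG00000028744, chr4:139021340-139038019, minus strand), with 17.4 and 9.41 TPM in the SiglecF hi libraries and 8.58 and 5.32 TPM in the SiglecF lo libraries and a ratio of -0.85 (interval -1.05 to -0.65), and Slc6a8 with -0.52 (interval -0.65 to -0.39). Of the neutrophil markers 2 of 8 were higher in *Cd300a-/-* SiglecF hi neutrophils, of the granule genes 3 of 4, of the endothelial genes 2 of 5 and of the cardiomyocyte genes 2 of 4, and 3 of 5 fibroblast genes were lower; their part was not tested.

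The partner lists also had few calls in SiglecF hi neutrophils. Glutathione genes had 2 higher and 1 lower of 9 (uncentred 2 and 0), with Gclc at 0.59. Polyamine and arginine genes had 1 higher and 0 lower of 10, namely Nos2 with 0.87, and volume and pH genes 2 higher and 0 lower of 13. A single gene each was lower in the ATF4, mTORC1 and zinc buffering lists, the last being Mt2 with -0.65. The 5 lists of monocarboxylate partners, endolysosomal sensing, nucleotide sugar enzymes, fatty acid oxidation and creatine metabolism had no call.

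The genotype comparisons within each subset share no library. Slc37a3 was higher in *Cd300a-/-* neutrophils of both subsets, with ratios of 0.76 and 0.77, on levels of 5.83 TPM (WT) and 10.5 TPM (*Cd300a-/-*) in SiglecF lo and of 5.31 and 10.0 TPM in SiglecF hi libraries. Slc66a1 was lower in both, with ratios of -0.59 and -0.85. Slc6a8 was called in opposite directions, with 0.61 among SiglecF lo and -0.52 among SiglecF hi neutrophils, but the latter was -0.49 without the subtraction of the median, so that the opposite call was lost. The single members higher in both and lower in both are 0.85% of the 118 each, against 1.31% and 2.29% of all genes tested.

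**Figure D3:**
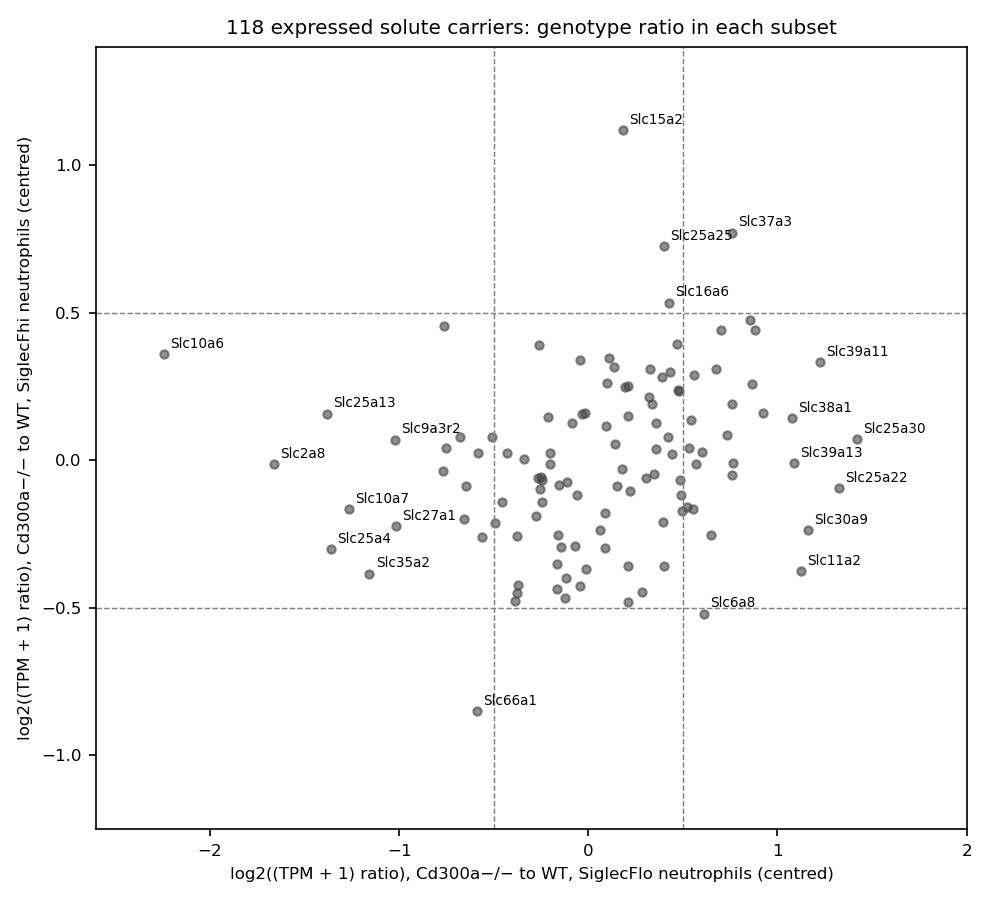
Ratio of *Cd300a-/-* to WT for each of the 118 members in SiglecF lo (horizontal) and SiglecF hi neutrophils (vertical), as log2 of the ratio of TPM + 1 less the median of all genes tested; dashed lines mark 0.5 and -0.5, and members past 1 in SiglecF lo or past 0.5 in SiglecF hi neutrophils are named. The points spread more widely along the horizontal axis, and Slc37a3 is the member above 0.5 on both axes.

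The members lie on 20 chromosomes, with at most 12 on one, and span a median of 26205 bases against 21872 for all genes tested. Pairs of members within 100000 bases of each other were Slc38a1 with Slc38a2, Slc31a2 with Slc31a1 (62316 bases apart) and Slc7a6 with Slc7a6os (2011 bases apart). Whether the counting used the strand is not stated, and 25 members overlap another gene of the files, so reads in the shared stretch are uncertain. Among the genes named above these include Slc39a13, Slc10a3, Slc15a3, which overlaps Tmem132a (mean 22.0 TPM), Slc39a11, which overlaps Cog1 (13.9 TPM), and Slc16a6, which overlaps Arsg (15.7 TPM) and Amz2 (9.42 TPM). Positions in the files are on GRCm39, as named in the submitters' processing notes.

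Promoter sequence was read for the members that RefSeq's table holds, 90 of 118 with 121 promoters, each from 250 bases before to 50 bases after a gene start on GRCm38.p6, and both strands were searched for 4 short motifs. The letters TTGCATCA, the core of the amino acid response element bound by ATF4 with a partner, were in 4 of 121 member promoters (3.31%) against 0.89% of all 32851 promoters. TGACNNNGC, the core of the antioxidant response element, was in 19.0% against 12.4%, the E-box CACGTG in 16.5% against 7.15%, and the metal response element core, TGCGCNC or TGCACNC, in 36.4% against 25.7%. Per gene, the shares were 3.33%, 23.3%, 21.1% and 43.3% of the 90 members, against 0.79%, 17.3%, 12.5% and 39.7% of the 6715 genes tested that the table holds. None of the 4 motifs contains another, though matches of different motifs may overlap. The members with the amino acid response core were Slc7a11, Slc7a7 and the sugar carrier Slc50a1. A match is a description of the letters and not a measured binding site.

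The promoter of Slc7a11 is shown because it is the amino acid carrier called lower in SiglecF hi neutrophils of both genotypes after the subtraction and higher in *Cd300a-/-* SiglecF lo neutrophils, and because its promoter holds the core on both strands, beginning 66 and 47 bases before the start. The 250 bases before the start lie at chr3:50443614-50443863 on the minus strand of GRCm38.p6, and capitals mark both copies of the core.
Slc7a11: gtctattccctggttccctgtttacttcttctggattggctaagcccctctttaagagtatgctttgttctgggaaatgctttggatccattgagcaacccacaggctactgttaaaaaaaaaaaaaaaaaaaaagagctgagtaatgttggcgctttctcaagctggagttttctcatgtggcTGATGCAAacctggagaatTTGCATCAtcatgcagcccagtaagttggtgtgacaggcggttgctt
The promoter of Slc30a1, the zinc exporter of the plasma membrane that metal-loaded MTF1 is known to induce, is shown for the metal carriers. Slc30a1 measured 16.5 and 14.2 TPM in the SiglecF hi libraries and 7.05 and 7.33 TPM in the SiglecF lo libraries, a ratio of 0.55 in WT and 0.22 in *Cd300a-/-* mice for SiglecF hi against SiglecF lo neutrophils. The 250 bases before its start lie at chr1:191906531-191906780 on the plus strand of GRCm38.p6, and capitals mark the metal response element core on the opposite strand, which begins 43 bases before the start.
Slc30a1: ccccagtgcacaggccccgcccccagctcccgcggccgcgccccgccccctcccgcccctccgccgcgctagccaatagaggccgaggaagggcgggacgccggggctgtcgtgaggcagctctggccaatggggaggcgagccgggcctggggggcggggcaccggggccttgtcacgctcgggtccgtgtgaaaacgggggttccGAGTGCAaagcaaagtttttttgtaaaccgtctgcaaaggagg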

How the data were processed

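Poly(A) RNA of sorted cardiac neutrophils was sequenced as paired-end reads from NEBNext Ultra II libraries, 1 per group. The count the authors deposited per gene is not normalized; whether it counts reads or pairs, or uses the strand, is not stated. The authors deposited TPM, computed in CLC Genomics Workbench; the submitters' processing notes name GRCm39. Deposited RPKM and CPM values were not used.

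The log2 ratio of TPM with a pseudocount of 1 was centred on the median of all genes with a mean over 5 TPM, and called past 0.5. Intervals (95%) carry the Poisson error of both counts through the log; they cover counting error only, since reads carried no molecular identifiers and so need not be separate molecules. The members and lists were chosen with earlier results of these data known. From the lists as first fixed, 3 genes are not reported here. Named members are the 8 most abundant, the 6 largest rises and 6 largest falls of each comparison, the most abundant of each class, those called in opposite directions and the 3 nearest the limit on either side; others, and the partner genes named, were picked after their values were seen. Substrate classes were assigned from general knowledge of each gene. Alternatives were a pseudocount of 0.1, no centring, TMM factors (edgeR 4.0.16 in R 4.3.3), a mean over 10 TPM, 5 TPM in both libraries, 50 counts and a threshold of 1. Scripts (Python 3.11.15, pandas 2.3.3, numpy 2.4.6, matplotlib 3.10.9) were tested on simulated data.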

Additional observations from a re-analysis of the deposited data

Results flagged for a closer look

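Of the 118 solute carriers, 4 were called in opposite directions by the subset comparison in the 2 genotypes. Slc10a6, the steroid sulphate carrier, had SiglecF hi to SiglecF lo ratios of -0.62 in WT and 1.96 in *Cd300a-/-* mice, a difference of -2.58, and was at 8 counts in *Cd300a-/-* SiglecF lo neutrophils. Slc25a13, the mitochondrial aspartate and glutamate carrier, had ratios of -0.57 and 0.94, a difference of -1.51, with 6.24 and 7.26 TPM in the SiglecF hi libraries and 6.23 and 1.75 TPM in the SiglecF lo libraries. Slc10a7 had ratios of -0.54 and 0.53, a difference of -1.07, with 12.9 and 11.6 TPM in the SiglecF hi libraries and 12.6 and 4.59 TPM in the SiglecF lo libraries. For these 3 genes *Cd300a-/-* SiglecF lo was the low library and the other 3 lay close together. Slc30a9, of the zinc exporter family, had ratios of 0.78 and -0.64, a difference of 1.43, with 15.7 and 13.4 TPM in the SiglecF hi libraries and 5.52 and 13.4 TPM in the SiglecF lo libraries, and WT SiglecF lo was its low library. Without the subtraction of the median of all genes, the ratios in WT mice were -0.05 for Slc10a6, 0.0015 for Slc25a13 and 0.03 for Slc10a7, and that of Slc30a9 in *Cd300a-/-* mice was -0.0006, so none of the 4 genes was then called in opposite directions.

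Slc6a8, the creatine transporter, was called in opposite directions by genotype, 0.61 among SiglecF lo and -0.52 among SiglecF hi neutrophils, a difference of 1.13. The interval among SiglecF hi neutrophils, -0.65 to -0.39, spans the threshold, and without the subtraction of the median the ratio there was -0.49, so that the opposite call was lost. Its levels were 29.8 and 20.9 TPM in the SiglecF hi libraries and 3.98 and 6.53 TPM in the SiglecF lo libraries, so the subsets were closer together in *Cd300a-/-* mice. With 1 library per group, none of these 5 differences was tested.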

How the results depend on the processing

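No paired analysis was possible because each group has 1 library and the labels give no replicate numbers. With a pseudocount of 0.1 or with TMM factors, all 8 counts of called members stayed within 1.5 times their main value. The minimum of 50 counts summed over both libraries removed no member, so it says nothing about members with few counts. Without centring, 70 members were higher and 8 lower in SiglecF hi than in SiglecF lo neutrophils in WT mice, 77 higher and 7 lower in *Cd300a-/-* mice, and 1 was lower in *Cd300a-/-* SiglecF hi than in WT SiglecF hi neutrophils. Of all 8344 genes tested, 4569 were then higher and 615 lower in the first comparison, 4888 and 635 in the next, and 402 lower in the last. The WT subset ratios of Slc10a7, Slc25a13 and Slc25a3 then became 0.033, 0.0015 and 0.020, and that of Slc6a6 in *Cd300a-/-* mice 0.13, which follows from leaving out the shift of all genes. With a mean over 10 TPM, 1 of 91 members was higher in *Cd300a-/-* SiglecF hi neutrophils, and the lipid class median between subsets in *Cd300a-/-* mice was -0.33 over 2 genes. With over 5 TPM in both libraries, 17 of 89 members were higher in *Cd300a-/-* SiglecF lo neutrophils; class medians over the 1 gene left were -0.043 for creatine and taurine between WT subsets, and for lipids -2.44 between subsets in *Cd300a-/-* mice and 0.42 for *Cd300a-/-* against WT in SiglecF lo neutrophils. The latter filter also let in genes outside the members, with 120 genes for *Cd300a-/-* against WT in SiglecF hi neutrophils. Shares of all genes under either of these filters are not given. At a threshold of 1, 12 members were higher and 9 lower between subsets in WT and 7 and 14 in *Cd300a-/-* mice, and for *Cd300a-/-* against WT 7 and 8 in SiglecF lo and 1 and 0 in SiglecF hi neutrophils. Of all 8344 genes tested, 531 were then higher and 702 lower between subsets in WT and 652 and 800 in *Cd300a-/-* mice. For *Cd300a-/-* against WT these counts were 408 and 619 in SiglecF lo and 43 and 52 in SiglecF hi neutrophils. Low counts in SiglecF lo libraries, such as 8 for Slc10a6, limit those ratios.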

Other observations

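Beside the members, 12 solute carrier genes had a mean at or under 5 TPM but exceeded 5 TPM in at least 1 library. Since they were picked for passing the limit in some library, a high library is built into the choice. Of the 12, 9 had their highest value in *Cd300a-/-* SiglecF hi neutrophils, where 42.1% of all genes tested were highest, and the difference was not tested. The proton-coupled amino acid carrier Slc36a3 measured 7.01 and 9.18 TPM in the SiglecF hi libraries and 0.743 and 2.39 TPM in the SiglecF lo libraries, on 9 counts in WT SiglecF lo neutrophils. The arginine and lysine carrier Slc7a1 measured 6.31 and 6.68 TPM in the SiglecF hi libraries and 0.750 and 3.98 TPM in the SiglecF lo libraries, and Slc37a1, of the sugar phosphate family, 6.59 and 7.47 TPM in the SiglecF hi libraries and 0.506 and 2.94 TPM in the SiglecF lo libraries. In these 3 genes WT SiglecF lo was the low library and both SiglecF hi libraries were the high ones. The urate and hexose carrier Slc2a9 measured 4.71 and 6.51 TPM in the SiglecF hi libraries and 2.01 and 1.30 TPM in the SiglecF lo libraries, so it was low in both SiglecF lo libraries. The phosphate carrier Slc20a2 measured 4.09 and 6.43 TPM in the SiglecF hi libraries and 3.82 and 0.277 TPM in the SiglecF lo libraries, on 6 counts in *Cd300a-/-* SiglecF lo neutrophils, which was its low library. Slc22a20 was the one gene of the 12 highest in *Cd300a-/-* SiglecF lo neutrophils, with 0.721 and 1.74 TPM in the SiglecF hi libraries and 4.62 and 5.95 TPM in the SiglecF lo libraries. These genes entered none of the counts of members.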
